A study of Mus musculus with 12 samples.

Results

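The genes described here encode the proteasome, its caps, activators and inhibitor, and the chaperones that assemble it. They were chosen by name, as every gene on the array whose symbol is Psm followed by a letter from a to g and a number, and each was measured by its brightest probe. The rule found 49 of the 36095 gene names on the array, covered by 61 probes, and it used no measured value other than brightness. Of these, 47 passed the filter on dim probes and were tested among 24090 genes. One of them, Psmc3ip, matches the name but is a meiotic recombination factor and not a proteasome subunit, and it is given apart, which leaves 46 tested members. The 47 genes were well above background on all 12 arrays, so the filter did not select any of them for a time at which it was high. They were 17 of the 19 core genes (Psma and Psmb), all 20 cap genes (Psmc and Psmd) and all 9 others (Psme, Psmf and Psmg).

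The study asked which hippocampal genes follow the circadian clock when light changes are removed. The mice were adult wild-type males kept in constant darkness, and total RNA came from the hippocampus of 3 mice each at circadian time (CT) 0, 6, 12 and 18, after 36, 42, 48 and 30 h of darkness. Each mouse was hybridised to its own 1-colour Agilent array, 12 arrays in all, and each time point came from a single day in darkness, so that circadian time and hours in darkness cannot be told apart. All values below are scaled log2 signals: the log2 of an array's processed signal minus the 75th percentile of that array, so that 0 is the 75th percentile and 1 unit is a doubling of signal.

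The proteasome is the protease that degrades proteins tagged with ubiquitin. Its core is a barrel of stacked rings, outer ones of alpha and inner ones of beta subunits, and the peptide bonds are cut inside by some of the beta subunits. A cap on the end of the barrel holds a base, whose ATPases unfold the substrate and feed it in, and a lid, which removes ubiquitin. In neurons, protein breakdown by the proteasome contributes to synaptic plasticity and to memory formation in the hippocampus. Subunits are needed in fixed proportion, and in mammals the transcription factors NFE2L1 and NFE2L2 can raise many subunit genes together.

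Every time had 1 array on each of 3 slides, always in the same place on the slide, so that an effect of that place and one of time cannot be told apart. Of 59305 non-control spots, 77.1% were well above background on the array of CT0 mouse 3 and 59.3% to 67.1% on the others, and 0 were saturated. The array of CT12 mouse 11 stood apart: its correlation with the other arrays over 24090 genes was 0.945 to 0.965, against at least 0.984 among those. On that array the median of 9 hippocampal neuron markers, each relative to its mean over the 12 arrays, was -4.48, against -0.12 to 0.62 on the others. The median of the 8 cerebellar and hindbrain markers tested was 4.58 on it, against -0.75 to -0.14 on the others. The tests over circadian time, and several of the CT12 minus CT0 differences that it moves, are therefore given with and without it. Correlations use all 12 arrays.

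No proteasome gene was called as changing over circadian time. In limma's F test across the 4 times, 0 of 46 members had an adjusted p under 0.05, where 0.154% of all genes were called, and the smallest adjusted p of a member was 0.335. A 24-hour cosine called 0 of 46 (0.0664% of all genes), CT12 against CT0 called 0 (0.0581%) and CT18 against CT6 called 0 (0.137%) in limma. The members at an unadjusted p under 0.05 numbered 2 in the F test (10.6% of all genes), 3 in the cosine fit (9.71%), 2 in CT12 against CT0 (11.7%) and 2 in CT18 against CT6 (8.29%). Without CT12 mouse 11 the counts called were again 0 in all 4 tests, where 0.245%, 0.274%, 0.0457% and 1.16% of all genes were. At an unadjusted p under 0.05 there were then 1, 3, 1 and 2 members, against 12.1%, 12.2%, 8.24% and 13.7% of all genes. A fit that took slide as a block called 0 members in each test, against 0.0706%, 0.054%, 0.0498% and 0.137% of all genes, and had 3, 4, 3 and 3 members at an unadjusted p under 0.05, against 15.2%, 14.2%, 16.5% and 11.4% of all genes.

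The members varied little between times, and the intervals bound how large a change could be. Over the 4 time means, the range was 0.13 for the median member and 0.30 for the median gene of all tested, from 0.04 for the lid subunit Psmd11 to 0.41 for the immunoproteasome subunit Psmb9. For CT12 minus CT0 the 95% interval lay within a 1.5-fold change either way for 40 of 46 members, against 50.6% of all genes. For CT18 minus CT6 it did so for 42 of 46, against 54.5%. Only 2852 of all tested genes had probes at least as bright as the median member, so these comparisons are not matched for brightness. Whether other genes as bright as the members varied as little was not tested. The widest bounds were those of the activator Psme3, -0.67 at the low end of CT12 minus CT0 and -0.78 at the low end of CT18 minus CT6.

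**Figure D1:**
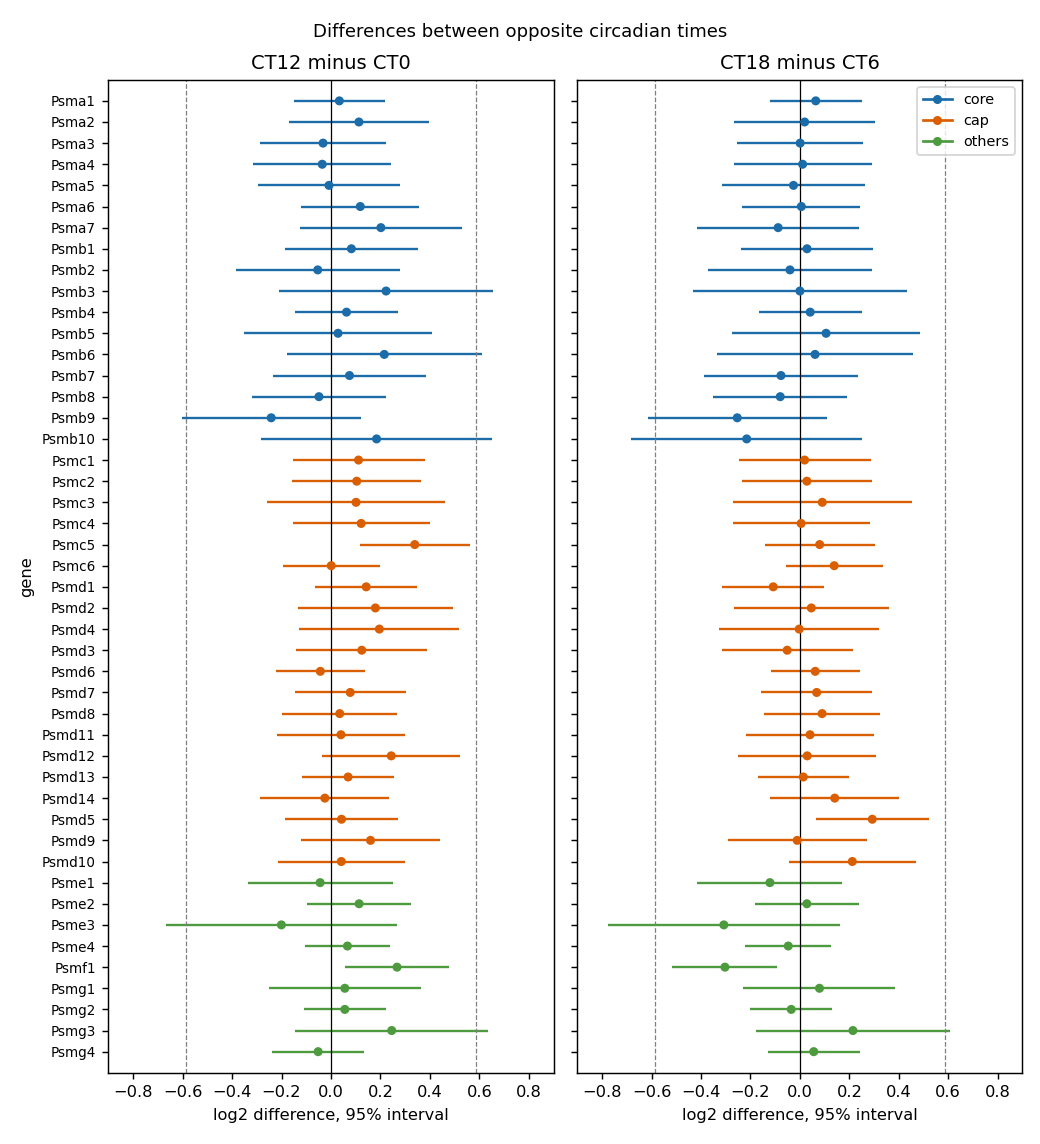
Log2 difference (horizontal axis) between CT12 and CT0 (left) and between CT18 and CT6 (right) for the 46 members (rows), as points with 95% intervals from limma, coloured by class, with dashed lines at a 1.5-fold change. Most intervals cross 0 and lie between the dashed lines, and those of Psmf1 and Psmc5 on the left and Psmf1 and Psmd5 on the right do not cross 0 before adjustment.

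The gene with the smallest p in the F test and in the cosine fit was Psmf1, which encodes PI31, a proteasome-binding protein first described as an inhibitor of the core and known to link proteasomes to axonal transport in mice and flies. Its probe lies at mm9 chr2:151555353-151555412 on the minus strand. Its sequence is shown with those of Psmc5, Psmd5 and Psmb9 because each of the differences described next rests on a single probe. All are 5′ to 3′ as the array's design lists them.
Psmf1: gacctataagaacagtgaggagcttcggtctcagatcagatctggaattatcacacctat
Psmc5: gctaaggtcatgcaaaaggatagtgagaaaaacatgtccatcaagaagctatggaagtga
Psmd5: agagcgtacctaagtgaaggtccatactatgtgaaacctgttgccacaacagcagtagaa
Psmb9: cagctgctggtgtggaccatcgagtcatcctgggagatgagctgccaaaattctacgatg

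Psmf1 had scaled log2 signals of -0.31, -0.21 and -0.25 at CT0, 0.06, 0.11 and 0.03 at CT6, -0.11, 0.17 and -0.03 at CT12, and -0.33, -0.23 and -0.15 at CT18. Every mouse at CT6 and CT12 lay above every mouse at CT0 and CT18. This split was not among the tests, and the share of all genes with the same split was not counted. CT12 averaged 0.27 ± 0.10 (SE) above CT0, a 1.2-fold difference, with an adjusted p of 0.395 in limma. CT18 averaged -0.30 ± 0.10 relative to CT6, 0.810-fold, with an adjusted p of 0.333. A 24-hour cosine placed the peak at 8.76 h with an amplitude of 0.20 and an adjusted p of 0.257. Without CT12 mouse 11 the adjusted p of CT18 against CT6 was 0.101 in limma, and over the 12 repeats that left out 1 mouse the smallest adjusted p of any member in that comparison ran from 0.101 to 0.844. With the slides as blocks, Psmf1 had an adjusted p of 0.200 in the F test, 0.222 for CT12 against CT0 and 0.180 for CT18 against CT6. Other settings went the other way. Under median centring the smallest limma adjusted p of any member was 0.818 in the F test, 0.800 in the cosine fit and 0.9999 for CT18 against CT6. With only the 6 arrays compared, it was 0.845 for CT12 against CT0. No member, Psmf1 included, then had an unadjusted p under 0.05 in these tests.

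Psmc5 encodes one of the ATPases of the base. Its probe (mm9 chr11:106124192-106124376, plus strand) has 60 bases that span 185 bases of genome, so it crosses a splice junction. The scaled log2 signals were 3.98, 4.0 and 3.92 at CT0, 4.05, 4.01 and 3.94 at CT6, 4.12, 4.49 and 4.30 at CT12, and 4.09, 4.08 and 4.06 at CT18. The 3 mice at CT12 were the highest of the 12, with CT12 mouse 11 above all. The CT12 minus CT0 difference was 0.34 ± 0.10 (SE, 1.26-fold, limma adjusted p = 0.336), and it was 0.25 without CT12 mouse 11 (adjusted p = 0.466). The other ATPase genes had CT12 minus CT0 differences above 0 as well, and the median of the 6 was 0.11. Without CT12 mouse 11 the median was 0.06 and 5 of the 6 lay above 0, with Psmc6 at -0.06, against 0.00097 with all arrays.

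Psmd5 encodes a chaperone that holds base subunits during cap assembly, and its probe lies at mm9 chr2:34708108-34708167 on the minus strand. The scaled log2 signals were 1.10, 1.05 and 1.12 at CT0, 0.97, 1.03 and 1.05 at CT6, 1.07, 1.10 and 1.23 at CT12, and 1.13, 1.32 and 1.49 at CT18. All 3 CT18 values lay above all 3 CT6 values, and the CT18 values spread more widely than those of any other time. CT18 minus CT6 was 0.29 ± 0.10 (SE, 1.22-fold, limma adjusted p = 0.408). Psmd10, another base chaperone, had 0.03, 0.09 and 0.08 at CT0, -0.05, 0.10 and -0.11 at CT6, -0.04, 0.30 and 0.06 at CT12, and 0.03, 0.28 and 0.26 at CT18. Its CT18 and CT6 values overlapped, with a difference of 0.21 ± 0.11 (SE, limma adjusted p = 0.733). The third of these chaperones, Psmd9, differed by -0.01 through the probe used and by 0.25 through its other probe.

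**Figure D2:**
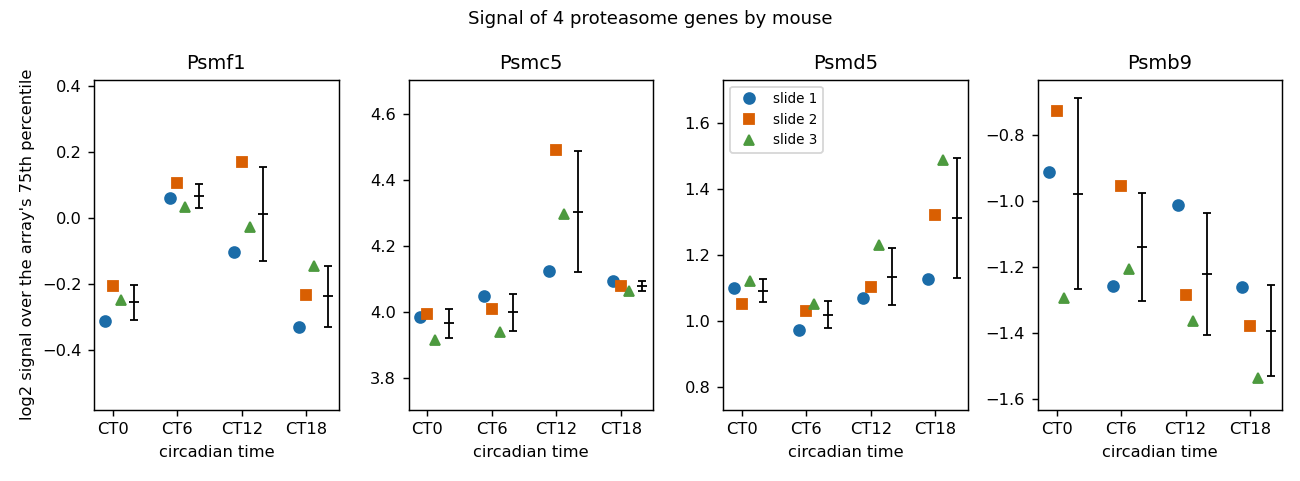
Scaled log2 signal (vertical axis, the same span of 1 log2 unit in each panel) of Psmf1, Psmc5, Psmd5 and Psmb9 in each mouse by circadian time, with symbols for the slide and black bars for the mean and SD of 3 mice. Psmf1 is higher at CT6 and CT12 than at CT0 and CT18 in every mouse, Psmc5 is highest at CT12 and Psmd5 at CT18 on all 3 slides, and Psmb9 spreads widely within each time.

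Among the core genes the smallest adjusted p in limma's F test was 0.598. The constitutive catalytic subunits were highest or lowest in single mice rather than at a time. Psmb5, the catalytic subunit with chymotrypsin-like activity, had scaled log2 signals of 6.36, 6.54 and 6.42 at CT0, 6.42, 6.56 and 6.33 at CT6, 6.23, 6.29 and 6.90 at CT12, and 6.36, 6.63 and 6.64 at CT18. Psmb6, with caspase-like activity, had 5.40, 5.53 and 5.46 at CT0, 5.47, 5.60 and 5.40 at CT6, 5.33, 5.65 and 6.06 at CT12, and 5.28, 5.70 and 5.67 at CT18. In both genes CT12 mouse 12 was the highest array, and the groups overlapped. Psmb7, with trypsin-like activity, had 3.44, 3.64 and 3.51 at CT0, 3.6, 3.81 and 3.64 at CT6, 3.44, 3.53 and 3.83 at CT12, and 3.36, 3.75 and 3.72 at CT18, with the same array highest. The CT12 minus CT0 differences were 0.03, 0.22 and 0.07 for Psmb5, Psmb6 and Psmb7, and the CT18 minus CT6 differences were 0.11, 0.06 and -0.08. Without CT12 mouse 11 the CT12 minus CT0 differences of these genes, in the same order, were 0.12, 0.23 and 0.11. Psma7, an alpha ring subunit, was the core gene outside the immunoproteasome with the smallest F test p, and it had 4.73, 4.84 and 4.88 at CT0, 4.89, 5.03 and 4.86 at CT6, 4.79, 4.89 and 5.38 at CT12, and 4.69, 4.92 and 4.90 at CT18. Again CT12 mouse 12 stood highest.

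Psmb2, a beta subunit without catalytic activity, had the third lowest CT12 minus CT0 difference, -0.05 with a 95% interval from -0.39 to 0.28. Its scaled log2 signals were 0.79, 0.51 and 0.57 at CT0, 0.86, 0.60 and 0.58 at CT6, 0.74, 0.24 and 0.73 at CT12, and 0.64, 0.59 and 0.69 at CT18. The value of 0.24 in CT12 mouse 11 was the lowest of the 12, and without that mouse the difference was 0.11. Over the 7 alpha ring genes the CT12 minus CT0 differences ran from -0.04 to 0.20, and over the 7 constitutive beta ring genes from -0.05 to 0.22. Without CT12 mouse 11 they ran from -0.04 to 0.27 and from 0.07 to 0.25.

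The inducible catalytic subunits of the immunoproteasome, which interferon-gamma raises and which replace their constitutive counterparts in immune cells, are Psmb8, Psmb9 and Psmb10. Psmb9 (probe at mm9 chr17:34319174-34319233, minus strand) had scaled log2 signals of -0.91, -0.73 and -1.30 at CT0, -1.26, -0.95 and -1.21 at CT6, -1.01, -1.29 and -1.36 at CT12, and -1.26, -1.38 and -1.54 at CT18. The CT18 values lay below all CT6 values, while CT12 and CT0 overlapped. The difference was -0.25 ± 0.16 for CT18 minus CT6 and -0.24 ± 0.16 for CT12 minus CT0 (SE, limma adjusted p = 0.839 and 0.543). With 1 mouse left out, CT18 minus CT6 ran from -0.32 without CT18 mouse 14 to -0.16 without CT6 mouse 6 and CT12 minus CT0 from -0.40 without CT0 mouse 3 to -0.12 without CT0 mouse 2. Psmb8 had -0.81, -0.94 and -1.07 at CT0, -1.17, -0.89 and -1.16 at CT6, -0.84, -1.07 and -1.05 at CT12, and -1.06, -1.10 and -1.30 at CT18. The same mice gave the highest values of both genes: CT0 mice 1 and 2, CT6 mouse 6 and CT12 mouse 10. Psmb10 had 4.03, 4.14 and 4.10 at CT0, 4.21, 4.48 and 4.35 at CT6, 4.12, 3.92 and 4.78 at CT12, and 3.83, 4.32 and 4.25 at CT18, so its highest array was CT12 mouse 12, as for the constitutive catalytic subunits. Its CT12 minus CT0 difference was 0.18 (limma adjusted p = 0.732). Without CT12 mouse 11 it was 0.36 (limma adjusted p = 0.716), then the largest of any member. The median of 8 interferon response genes, each relative to its own mean, ran from -0.28 to 0.24 over the arrays, highest in CT12 mouse 10, and the median of 8 microglial markers from -0.80 in CT12 mouse 11 to 0.15. Their part in the immunoproteasome values was not tested.

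In the cap, the differences were small and mostly above 0 for CT12 minus CT0. Psmd12, a lid subunit, had 3.79, 3.95 and 3.86 at CT0, 3.87, 4.11 and 3.98 at CT6, 3.89, 4.33 and 4.12 at CT12, and 3.87, 4.11 and 4.06 at CT18. Its CT12 and CT0 values overlapped, and the difference of 0.24 ± 0.13 (SE) was 0.14 without CT12 mouse 11. Psmd1, the large scaffold subunit of the base, had 4.12, 4.20 and 4.16 at CT0, 4.29, 4.35 and 4.29 at CT6, 4.19, 4.29 and 4.41 at CT12, and 4.07, 4.27 and 4.28 at CT18. All its CT18 values lay below all its CT6 values, by -0.11 ± 0.09 on average (SE, limma adjusted p = 0.972). The scaffold Psmd2 and the ubiquitin receptor Psmd4 had CT12 minus CT0 differences of 0.18 and 0.20, which were 0.11 and 0.16 without CT12 mouse 11. The deubiquitinase Psmd14, which removes ubiquitin at the entry to the core, differed by -0.02 for CT12 minus CT0 and 0.14 for CT18 minus CT6. The 8 lid genes together ranged from -0.04 to 0.24 for CT12 minus CT0 and from -0.05 to 0.14 for CT18 minus CT6.

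The activators open the core without the cap. Psme1, measured by 10 spots per array whose SD was 0.03 to 0.14, had 2.85, 2.69 and 2.56 at CT0, 2.74, 2.87 and 2.73 at CT6, 2.74, 2.37 and 2.85 at CT12, and 2.59, 2.65 and 2.74 at CT18. Its lowest array was CT12 mouse 11, and its CT12 minus CT0 difference was -0.04 with that array and 0.10 without it. Its partner Psme2 had 3.63, 3.59 and 3.50 at CT0, 3.49, 3.63 and 3.6 at CT6, 3.57, 3.67 and 3.82 at CT12, and 3.52, 3.64 and 3.64 at CT18. The other probes named for Psme2 gave CT12 minus CT0 differences of -0.07 and -0.20, against 0.11 for the probe used, so its direction rests on the probe. Psme3, the nuclear activator, had -0.48, -0.44 and -0.49 at CT0, -0.27, -0.31 and -0.34 at CT6, -0.58, -1.03 and -0.40 at CT12, and -0.42, -1.11 and -0.31 at CT18. The values of CT12 mouse 11 and CT18 mouse 15 were far below the rest, and without CT12 mouse 11 the CT12 minus CT0 difference was -0.02, against -0.20 with it. Psme4, an activator known for histone breakdown in sperm development, had -0.42, -0.49 and -0.45 at CT0, -0.34, -0.45 and -0.47 at CT6, -0.41, -0.37 and -0.38 at CT12, and -0.40, -0.49 and -0.51 at CT18. Its CT12 values lay above all its CT0 values, by 0.07 ± 0.08 (SE). For CT18 minus CT6 its other probe gave -0.21, against -0.05 for the probe used. Over the 11 members with more than 1 probe, the correlation of another probe with the one used over 12 arrays ran from -0.51 for Psme2 to 0.97 for the ATPase Psmc2.

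The chaperones of core assembly are encoded by Psmg1 to Psmg4. Psmg3 had 1.59, 1.82 and 1.72 at CT0, 1.63, 1.92 and 1.70 at CT6, 1.69, 1.88 and 2.29 at CT12, and 1.68, 2.19 and 2.03 at CT18. It had the third largest CT12 minus CT0 difference, 0.25 ± 0.18, and the second largest CT18 minus CT6 difference, 0.21 ± 0.18 (SE, limma adjusted p = 0.566 and 0.957), and the groups overlapped in both. CT12 minus CT0 was 0.08 without CT12 mouse 12 and 0.38 without CT12 mouse 10, and CT18 minus CT6 was 0.10 without CT18 mouse 15 and 0.36 without CT18 mouse 14. Psmg1, Psmg2 and Psmg4 differed by -0.05 to 0.06 for CT12 minus CT0. Psma8, the alpha subunit of the testis, was well above background on 0 arrays and Psmb11, the catalytic subunit of the thymus, on 1 array. Psmc3ip differed by -0.25 for CT12 minus CT0 and -0.43 for CT18 minus CT6, with a limma F test adjusted p of 0.816.

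CT12 lay wholly above CT0 for 4 of 46 members (Psmc5, Psme4, Psmf1 and Psmg2), against 5.06% of all genes, and wholly below for 0, against 7.8%. CT18 lay wholly above CT6 for 3 members (Psmc5, Psmc6 and Psmd5), against 10.7%, and wholly below for 3 (Psmb9, Psmd1 and Psmf1), against 12.3%.

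With the percentile scaling, small differences lay more often above 0 than below. CT12 minus CT0 was above 0 for 35 of 46 members, against 45% of all genes: 11 of 17 core, 18 of 20 cap and 6 of 9 others. The medians were 0.06 for the core, 0.10 for the cap and 0.06 for the others, and -0.03 for all genes. Without CT12 mouse 11 they were 0.09, 0.08 and 0.06 for these classes and -0.0087 for all genes. CT18 minus CT6 was above 0 for 30 of 46, against 45.2% of all genes, with medians of 0.0009 for the core, 0.04 for the cap and -0.04 for the others, and -0.02 for all genes. The mean at CT0 was the lowest of the 4 for 28 of 46 members, against 16.6% of all genes. Without CT12 mouse 11 it was so for 31 members, where the share of all genes was not counted. The members are not independent of each other, as the arrays below show, and these counts are a description. The shares of all genes beside them are not matched for brightness. Without CT12 mouse 12, the count above 0 for CT12 minus CT0 was 25 of 46, against 40.9% of all genes. The median of the members was then 0.01, against 0.07 with all arrays, and that of all genes -0.07, against -0.03. The member median thus lay 0.08 above that of all genes without this mouse. Under quantile normalization, median centring, normexp background and the deposited table, the count above 0 for CT12 minus CT0 was 34, 44, 33 and 34 of 46 members, against 54.5%, 72.3%, 44% and 55% of all genes. The member median lay 0.10 above that of all genes with the percentile scaling, and 0.03 above it both under quantile normalization and in the deposited table. Median centring, which differs from the percentile scaling only by a constant per array, moved the all-gene median to 0.17 and the member median to 0.27. Under it, with each gene set to its mean over the arrays, the all-gene median was -0.50 in CT0 mouse 3. On the other arrays it was -0.09 to 0.19. For CT18 minus CT6 the count above 0 was 24 of 46 both under quantile normalization and in the deposited table, where 49.7% and 49.5% of all genes were above 0. Under median centring it was 39 (64% of all genes) and under normexp background 31 (39.4%). It was also 19 without CT18 mouse 15 (49.7% of all genes) and 20 without CT6 mouse 5 (47.5%). Without CT6 mouse 7 it was 22 (44.9%), and without CT18 mouse 16 it was 23 (41.9%).

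The same measure differed between slides, but each slide held 1 mouse per time, so that slide and mouse cannot be told apart. The CT12 array on slide 2 was CT12 mouse 11, the array with low hippocampal markers. That on slide 3 was CT12 mouse 12. On slides 1, 2 and 3, the core median of CT12 minus CT0 was -0.03, -0.10 and 0.21, and that of the cap -0.0036, 0.09 and 0.24. For CT18 minus CT6 the core median was -0.09, -0.02 and 0.12 on these slides, and that of the cap -0.02, 0.01 and 0.12. The lean towards CT12 and CT18 was thus largest on slide 3 for both classes. In both comparisons the core median was above 0 on slide 3 only, and the cap median was below 0 on slide 1.

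The members moved together from mouse to mouse rather than from time to time. With each gene set to its mean over the 12 arrays, the median of the 46 members was -0.11, 0.00 and -0.05 in the CT0 mice, -0.05, 0.10 and -0.05 in the CT6 mice, -0.11, 0.02 and 0.15 in the CT12 mice, and -0.11, 0.10 and 0.08 in the CT18 mice. The first value of each time is its slide 1 array, and it was the lowest of its time at all 4, though at CT6 by less than the last decimal printed. This order depends on the scaling. Under median centring the lowest array was CT0 mouse 3 at CT0 (-0.57) and CT6 mouse 7 at CT6 (-0.11). The median of all genes on these arrays was then -0.50 and -0.05, so most of the first value was shared by all genes. Under normexp background the lowest at CT6 was CT6 mouse 7 (-0.05). Under quantile normalization and in the deposited table the slide 1 array was the lowest at all 4 times. Core and cap followed each other: the core median was -0.14 and the cap median -0.11 in CT0 mouse 1, and 0.17 and 0.15 in CT12 mouse 12. Under quantile normalization the values in CT12 mouse 12 were 0.06 and 0.05, below the core median of 0.07 in CT18 mouse 15 and the cap median of 0.13 in CT12 mouse 11. With the percentile scaling the median of all 24090 genes stayed between -0.07 and 0.04, and under median centring it ran from -0.50 to 0.19. In whole tissue, fewer cells of a type and less RNA per cell cannot be told apart.

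**Figure D3:**
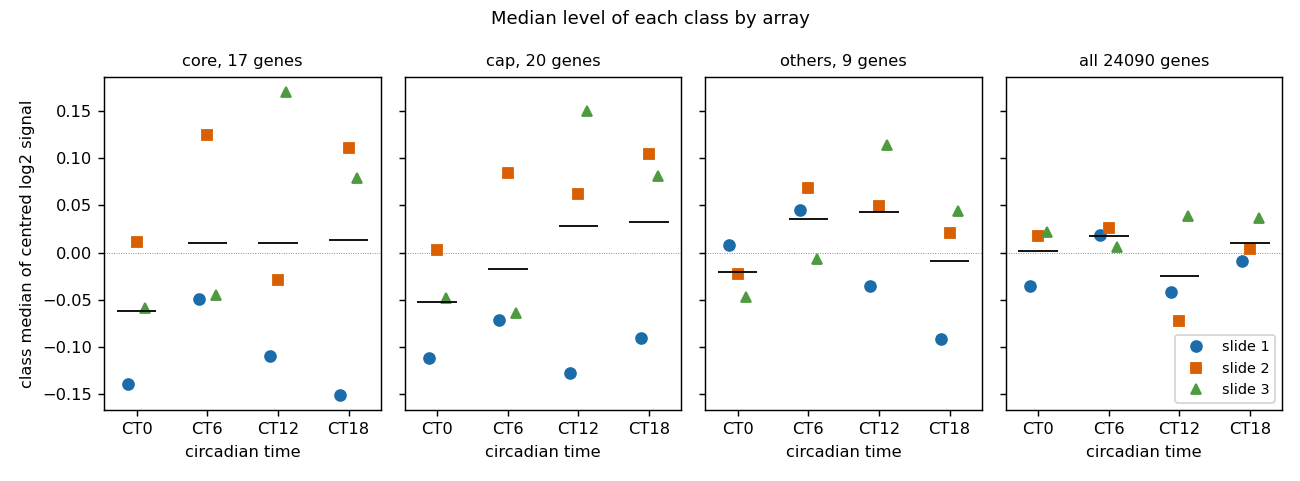
Median over the genes of a class of the log2 signal, each gene relative to its mean over 12 arrays (vertical axis), for every array by circadian time, with symbols for slide and a line for the mean of each time. Core and cap medians lie below 0 on all 4 slide 1 arrays (blue) and highest in CT12 mouse 12 with the percentile scaling shown, while the 9 other members and all 24090 genes spread less.

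With the percentile scaling, for 15 of 46 members the slide 1 array was the lowest of its time at all 4 times, against 8.63% of all genes, and for 29 of 46 it was so at 3 or 4 times, against 25.5%. These shares are not matched for brightness, and whether other genes as bright as the members did the same was not tested. The 15 were Psma2, Psma3, Psma5, Psmb1, Psmb3, Psmb7, Psmc1, Psmc2, Psmc3, Psmd2, Psmd4, Psmd7, Psmd12, Psmg1 and Psmg3. The beta subunit Psmb3 shows it: 4.72, 4.92 and 4.91 at CT0, 4.79, 5.15 and 4.91 at CT6, 4.73, 5.01 and 5.47 at CT12, and 4.66, 5.11 and 5.08 at CT18. Its slide 1 values ran from 4.66 to 4.79 and all others from 4.91. A limma F test on slide with circadian time in the model, chosen after seeing the data, called 0 of 46 members at an adjusted p under 0.05, against 6.51% of all genes. In that test 11 of 46 members had an unadjusted p under 0.05, against 24.2% of all genes.

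Markers of another tissue moved in part with the same arrays. The median of the 9 choroid plexus markers tested, each relative to its own mean, was 3.65 in CT0 mouse 1, 2.55 in CT6 mouse 7, 3.13 in CT12 mouse 10, 1.84 in CT12 mouse 11 and 2.37 in CT18 mouse 14, and -2.15 to -1.54 on the other arrays. Their summed level was 6.92 to 8.35 on the log2 scale on these 5 arrays and 1.0 to 1.55 on the others. The median of the 46 members was -0.11, -0.05, -0.11, 0.02 and -0.11 on these 5, in the order given, and -0.05 to 0.15 on the others. Slide 1 held 3 of the 5, and its other array, CT6 mouse 5, had a choroid plexus median of -1.90 and a member median of -0.05. The part of these cells in the members' levels was not tested.

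Correlation over the 12 arrays describes how tightly the members ran together. The median over pairs of members was r = 0.73 for the core, 0.59 for the cap and 0.10 for the others, and 0.50 over all 46. The same median was 0.02 over all pairs of tested genes and 0.33 for the 2852 genes whose probes were at least as bright as the median member. With the mean of each time removed, it was 0.81 for the core, 0.69 for the cap, 0.03 for the others and 0.44 for the bright genes. With the mean of each slide removed as well, it was 0.87 for the core, 0.54 for the cap, 0.23 for the others and 0.53 for the bright genes. The points of a pair share their array, its scaling and its slide.

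The genes that followed the rest most closely were the beta subunit Psmb1, with r = 0.98 against the median of the other members over 12 arrays, the ATPase Psmc2 (0.96), the beta subunit Psmb3 (0.95) and the lid subunit Psmd7 (0.95). Those with the lowest values were Psmb9 (-0.35), Psmb8 (-0.30), Psme4 (-0.29), Psmb2 (-0.23) and Psme3 (-0.20). Most core and cap genes thus ran together, with Psmb8, Psmb9 and Psmb2 as exceptions in the core. With time and slide means removed, however, the median pair of cap genes (0.54) was close to that of the bright genes (0.53). Psmf1 (0.34) and Psmc5 (0.30), which had the smallest F test p-values, were also among the weaker followers.

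**Figure D4:**
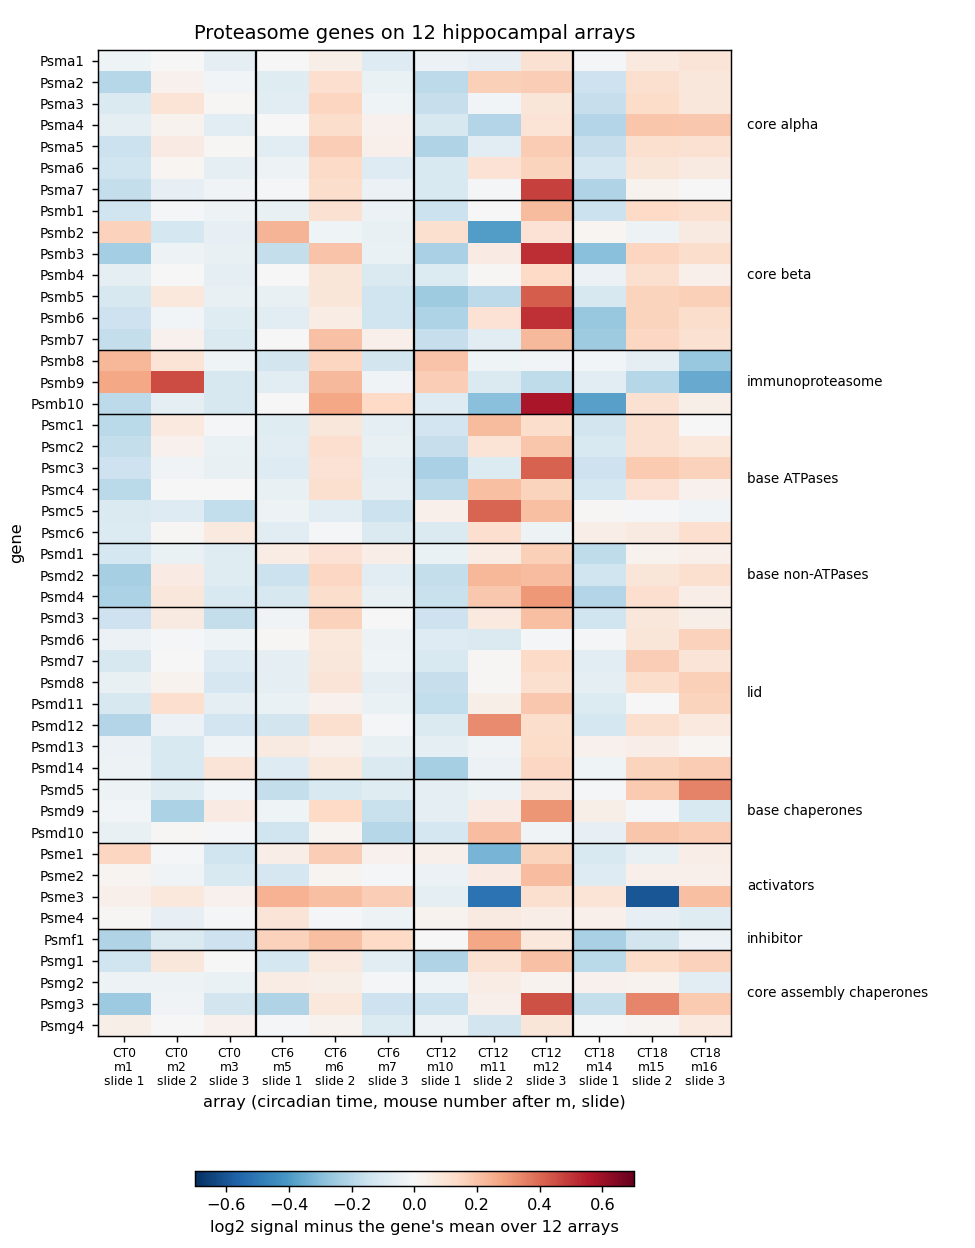
Log2 signal of the 46 members (rows, grouped by role) on the 12 arrays (columns, with circadian time, mouse and slide), each gene relative to its mean over the arrays, from blue (lower) to red (higher). Most core and cap rows are blue on the slide 1 arrays and red in CT12 mouse 12, whereas Psmb8, Psmb9, Psme3 and Psmf1 differ from that pattern.

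Promoter sequence was available from RefSeq (GRCm38.p6, a window of 300 bases that is mostly upstream of the start) for 39 of the 46 members, and was searched on both strands for fixed letters. The ETS motif CCGGAAG (reverse complement CTTCCGG) was present in 14 of 39 members (35.9%), against 9.93% of 27025 promoters and 17% of those of the 12063 other protein-coding genes tested here. It was found in 9 of 17 cap genes, 1 of 14 core genes and 4 of 8 others. The antioxidant response element core TGACNNNGC, which NFE2L1 and NFE2L2 bind, was present in 6 (15.4%), against 14% of all promoters and 16.5% of those of the other coding genes. CCAAT, the box of NF-Y, was present in 13 (33.3%), against 41.1% and 42.3%. The E-box CACGTG, to which CLOCK and BMAL1 bind, was present in 4 (10.3%, Psma4, Psmb10, Psmd9 and Psme3), against 8.09% of all promoters and 11.1% of those of the other coding genes. The D-boxes TTACGTAA and TTATGTAA were in 0 members, against 0.126% and 1.11% of all promoters and 0.182% and 0.73% of those of the other coding genes. The heat shock half-element GAANNTTC was in 3 (7.69%), against 9.04% and 7.32%. Each motif was counted on its own, whether or not it overlapped another.

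The promoters below are those of 2 members that moved with the rest, Psmd12 and Psmb6, and of Psmf1, with the matches in capitals. Psmd12 (chr11:107479278-107479577, plus strand) holds TGACNNNGC on the minus strand from base -247 and CCGGAAG on the minus strand from base -17, counted from the start of the gene. Psmb6 (chr11:70525107-70525406, plus strand) holds TGACNNNGC from base -9, and Psmf1 (chr2:151741261-151741560, minus strand) holds GAANNTTC from base -70. A match is a description of the letters and not a bound site.
Psmd12: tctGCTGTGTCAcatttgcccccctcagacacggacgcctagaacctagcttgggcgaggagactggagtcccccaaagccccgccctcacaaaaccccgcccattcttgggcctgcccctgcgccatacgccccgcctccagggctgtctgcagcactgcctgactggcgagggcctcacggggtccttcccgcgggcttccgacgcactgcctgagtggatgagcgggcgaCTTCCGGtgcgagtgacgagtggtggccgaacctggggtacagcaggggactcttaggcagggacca
Psmb6: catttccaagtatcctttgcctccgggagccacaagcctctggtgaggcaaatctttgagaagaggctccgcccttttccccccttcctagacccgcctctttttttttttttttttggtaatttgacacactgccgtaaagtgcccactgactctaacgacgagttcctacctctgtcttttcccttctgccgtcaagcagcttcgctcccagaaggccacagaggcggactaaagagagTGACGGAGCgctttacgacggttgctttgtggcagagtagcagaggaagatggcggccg
Psmf1: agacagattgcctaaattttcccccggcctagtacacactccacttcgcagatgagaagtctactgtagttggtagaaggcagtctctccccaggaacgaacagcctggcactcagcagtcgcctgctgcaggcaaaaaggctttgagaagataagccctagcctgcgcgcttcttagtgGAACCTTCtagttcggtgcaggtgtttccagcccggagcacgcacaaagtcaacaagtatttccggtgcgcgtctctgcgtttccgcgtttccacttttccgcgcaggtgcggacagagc

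The partners of the proteasome outside the name rule, such as the ubiquitin-activating enzymes Uba1 and Uba6, the shuttle factors and the transcription factors Nfe2l1 and Nfe2l2, formed a list of 26 genes, of which 25 were tested. In limma 0 of 25 were called by the F test or the cosine fit, against 0.154% and 0.0664% of all genes. CT12 against CT0 and CT18 against CT6 also called 0, against 0.0581% and 0.137%. In the F test 2 of 25 had an unadjusted p under 0.05, against 10.6% of all genes. The median CT12 minus CT0 difference was 0.03 with 14 above 0, against 45% of all genes. The median CT18 minus CT6 difference was -0.0033 with 12 above 0, against 45.2%. The smallest F test p was that of Txnl1, a thioredoxin-like protein bound to the cap, with -1.19, -1.08 and -1.22 at CT0, -1.17, -1.14 and -1.15 at CT6, -0.78, -0.01 and -1.02 at CT12, and -1.25, -1.22 and -1.38 at CT18 (limma adjusted p = 0.427). Its highest value was that of CT12 mouse 11, the array with low hippocampal markers, and all CT12 values lay above all others. Next came the shuttle factors Ubqln2 (limma F test adjusted p = 0.455) and Ubqln4, with CT12 minus CT0 differences of -0.24 and -0.28, each lowest in CT12 mouse 11. Ubqln2 had 2.11, 1.82 and 2.04 at CT12 and a mean of 2.23 at CT0. Ubqln4 had -0.16, -0.55 and 0.05 at CT12 and a mean of 0.06 at CT0. The differences of the partners are given with all arrays only. Akirin2, which carries proteasomes into the nucleus, the ubiquitin ligase Ube3c and Nfe2l2 followed, with CT12 minus CT0 differences of -0.15, -0.21 and 0.21.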

How the data were processed

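Total RNA was labelled with Cy3 by a low-input amplification protocol, per the labels' protocols. Agilent Feature Extraction 10.7.3.1 read the spots and gave, per the file headers, a background-subtracted intensity as processed signal and probe coordinates on mm9. Values in the authors' deposited table are log2. How it was made is not given in the sources used here, and it served as an alternative (each column correlated best with its own array, r at least 0.987, medians 5.36). Per the file headers the spot flags (other, 0 or 1) and the local background intensity were also used. The local background of CT0 mouse 1 was 100.6, and per the file headers the quality of that array was to be evaluated.

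Spots of a probe were averaged, and log2 processed signals were scaled to each array's 75th percentile. Probes were kept if well above background on all 3 arrays of at least 1 time (33966 of 55681), and a gene took its brightest probe, 24090 in all. limma 3.58.1 (R 4.3.3) fitted the 4 times over 12 arrays with Benjamini-Hochberg adjustment over all genes, called at 0.05, and was tested on simulated data. Named genes are the 4 per class with the smallest F test p, the 3 largest differences each way, the catalytic subunits, activators and inhibitor, and 6 partners. Members and lists were chosen with earlier results of these data known. Alternatives were scaling, background, filter, probe choice, variance, slide and each mouse left out. The number of mice limits the precision. Some genes of the partner list are not reported here and were left out of its counts.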

Additional observations from a re-analysis of the deposited data

How the results depend on the processing

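No member was called in any of the 4 limma tests under any alternative, with all arrays or with each mouse left out, while the number of all genes called, and so the background, moved. For the F test (37 genes with the main settings) it was 9 under median centring, 2 with no filter and 17 with slide as a block, and 0 to 118 with 1 mouse left out. For the cosine (16 genes) it was 6 under quantile normalization and 6 from the deposited table, 2 under median centring, 5 with no filter, 30 with trended robust variance, and 0 to 66 with 1 mouse left out. For CT12 against CT0 (14 genes) it was 7 under quantile normalization and 7 from the deposited table, 8 under median centring, 1 with no filter, 0 with only the 6 arrays compared (942 genes at an unadjusted p under 0.05) and 1 to 81 with 1 mouse left out, the highest without CT12 mouse 12. For CT18 against CT6 (33 genes) it was 53 under quantile normalization and 53 from the deposited table, 3 under median centring, 12 with no filter, 64 with trended robust variance, 59 with only the 6 arrays compared, and 1 to 280 with 1 mouse left out, the highest without CT12 mouse 11. The counts of 0 in the F test came without CT6 mouse 5, 6 or 7 or CT18 mouse 14 (1794 to 2071 genes at an unadjusted p under 0.05), and in the cosine without CT18 mouse 14 (1801 genes). The cause was not tested. Median centring gave class medians of CT12 minus CT0 of 0.2583 for the core, 0.2983 for the cap and 0.2516 for the others, and 0.0485 for the others in CT18 minus CT6. A difference within a slide compares 1 mouse with 1 mouse, and the CT12 array on slide 2 was that of CT12 mouse 11. Within slides, the CT12 minus CT0 median was -0.1049 on slide 2 and 0.2117 on slide 3 for the core, -0.0036 on slide 1 and 0.2364 on slide 3 for the cap, and -0.0629 on slide 1 and 0.2096 on slide 3 for the others. On slide 3 the CT18 minus CT6 median was 0.1245 for the core and 0.0361 for the others. With 1 mouse left out, CT12 minus CT0 ran from -0.0179 to 0.1508 for the core, 0.0347 to 0.2013 for the cap and 0.0446 to 0.077 for the others, and CT18 minus CT6 from -0.0556 to 0.0809, 0.0121 to 0.1003 and -0.0544 to -0.0012. Psmb2, at -0.05 for CT12 minus CT0, was 0.142 under median centring, 0.0308 without CT0 mouse 1 and -0.1391 to 0.1114 over all mice left out, the highest without CT12 mouse 11. Slide calls over all genes, 1569 with the main settings, were 999, 56, 967 and 975 under quantile normalization, median centring, normexp and the deposited table, with 0 members called in each. No paired analysis was possible because the mouse numbers are not shared between circadian times; slide, with 1 array of each time, was fitted as a block instead. The 46 members tested were well above background on all 12 arrays.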
